A study of Arabidopsis thaliana with 30 samples.

Results

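The iron uptake genes described here are 9 of the 32833 genes in each of 2 deposited count tables. They are the iron transporter gene IRT1 (AT4G19690), 4 ferric reductase oxidase genes and the 4 nicotianamine synthase genes. The reductase genes are FRO2 (AT1G01580), FRO3 (AT1G23020), FRO4 (AT5G23980) and FRO5 (AT5G23990). The nicotianamine synthase genes are NAS1 (AT5G04950), NAS2 (AT5G56080), NAS3 (AT1G09240) and NAS4 (AT1G56430). They were picked by name, and the set was chosen by measured values, because IRT1, NAS3 and FRO5 showed large changes in these data. Levels and fold changes of those 3 genes are therefore given as a description with no test, and only the other 6 genes carry adjusted p-values. All 9 genes passed the filter on low counts in the bak set, and 8 of 9 passed in the tcp set, where NAS2 was too low to be fitted.

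Poly-A RNA was sequenced from 30 libraries of Arabidopsis thaliana whole seedlings, aged 6 days by their labels, in 10 groups of 3. The bak set held the double mutant bak1-3 bkk1-1 (T-DNA lines), submerged and mock-treated, and the wild type Col, submerged and mock-treated. The tcp set held the CRISPR lines tcpq and tcp21, each submerged and mock-treated, and its own Col, submerged and mock-treated. BAK1 and BKK1 encode co-receptor kinases and TCP21 a class I TCP transcription factor, and the series concerns how plants tolerate submergence. The sources used here do not name the genes mutated in tcpq, the number of lines behind each mutant label or the length of submergence. The extraction text, shared by all libraries, also mentions germinating seeds. Nothing states that the 3 libraries of a group came from separate cultures, and the spread behind each p-value is that between these libraries, which may be technical.

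Arabidopsis takes up iron by acidifying the soil, reducing ferric iron at the root surface and importing the ferrous ion. FRO2 is the ferric chelate reductase of the root epidermis and IRT1 the main ferrous transporter there, and both are targets of the bHLH factor FIT acting with bHLH38, bHLH39, bHLH100 and bHLH101. FRO3 is expressed mainly in vascular tissue, while FRO4 and FRO5 are known for reducing copper at the root surface. The NAS enzymes make nicotianamine, a metal chelator that carries iron and other metals through the plant.

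FRO4 and FRO5 lie side by side on chromosome 5 of the RefSeq TAIR10.1 assembly, both on the minus strand, at chr5:8097978-8101330 and chr5:8105461-8108642, with 4130 bases and 0 annotated genes between them. Their coding sequences are 92.62% identical, with 155 differing bases over 2100, so reads from one could in part be counted for the other. The first 60 coding bases hold 3 differences and positions 1746 to 1805, the most divergent stretch of that length, hold 12. Both stretches are shown because the levels of FRO4 and FRO5 below rest on telling these copies apart, and capitals mark the differing bases.
FRO4 coding bases 1 to 60: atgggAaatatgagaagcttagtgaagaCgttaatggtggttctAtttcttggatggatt
FRO5 coding bases 1 to 60: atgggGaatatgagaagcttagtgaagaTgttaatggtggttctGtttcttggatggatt
FRO4 coding bases 1746 to 1805: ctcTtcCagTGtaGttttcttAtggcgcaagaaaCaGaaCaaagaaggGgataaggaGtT
FRO5 coding bases 1746 to 1805: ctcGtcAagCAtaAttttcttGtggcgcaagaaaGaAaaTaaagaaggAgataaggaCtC
Of all distinct runs of 50 bases in the spliced exons of FRO4, 5.11% also occur in those of FRO5, and no run of 100 bases does. NAS1 and NAS2 are 82.75% identical over the coding sequence, NAS3 and NAS4 79.0%, and FRO2 and FRO3 65.2%. FRO3 overlaps AT1G23010 on the opposite strand by 24 exon bases, and the sources used here name no strand setting.

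The 250 bases before the annotated start of 4 genes follow, for the 3 genes chosen for their changes and for FRO4, the neighbour and close copy of FRO5. IRT1 (chr4:10707344-10709015, plus strand) has 3 coding exons and NAS3 (chr1:2984829-2986231, plus strand) has 1. The intervals of the promoters are chr4:10707094-10707343 for IRT1, chr5:8101331-8101580 for FRO4, chr5:8108643-8108892 for FRO5 and chr1:2984579-2984828 for NAS3, in TAIR10.1 and read 5′ to 3′ on the strand of the gene. Capitals mark a CANNTG motif.
IRT1 promoter: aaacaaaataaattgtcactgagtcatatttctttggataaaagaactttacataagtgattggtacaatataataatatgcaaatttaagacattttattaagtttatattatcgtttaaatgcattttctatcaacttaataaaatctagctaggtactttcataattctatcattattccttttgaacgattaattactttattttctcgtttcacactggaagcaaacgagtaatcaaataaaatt
FRO4 promoter: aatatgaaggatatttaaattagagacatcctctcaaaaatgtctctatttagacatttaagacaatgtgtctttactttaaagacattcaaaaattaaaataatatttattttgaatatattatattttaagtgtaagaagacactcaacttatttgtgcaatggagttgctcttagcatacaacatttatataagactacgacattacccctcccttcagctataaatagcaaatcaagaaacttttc
FRO5 promoter: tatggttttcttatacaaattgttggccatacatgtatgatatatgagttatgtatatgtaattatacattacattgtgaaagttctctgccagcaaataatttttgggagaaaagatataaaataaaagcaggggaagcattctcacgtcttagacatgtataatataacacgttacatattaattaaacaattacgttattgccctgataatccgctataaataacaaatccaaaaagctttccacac
NAS3 promoter: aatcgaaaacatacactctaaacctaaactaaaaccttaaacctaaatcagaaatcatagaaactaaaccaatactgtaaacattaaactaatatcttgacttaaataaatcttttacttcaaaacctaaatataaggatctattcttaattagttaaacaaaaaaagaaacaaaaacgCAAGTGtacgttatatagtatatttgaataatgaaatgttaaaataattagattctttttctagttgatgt
Motifs were searched on both strands. CANNTG, the E-box letters, occurred before NAS2, NAS3 and NAS4 and in 55.3% of 27443 promoters of the same length. CACGTG, which is also a CANNTG, occurred before none of the 9 genes and in 6.49% of promoters. GGNCCCAC, letters of class I TCP sites, occurred before none of the 9 and in 1.09% of promoters, and TGGGCC, which can lie inside the reverse of it, before none and in 13.7%. A match or its absence describes these letters in this window only. The FRO4 and FRO5 promoters were identical in 50.2% of aligned columns, against 92.62% for their coding bases.

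Library totals ran from 19662531 to 27417759 counts in the bak set and from 17466180 to 33957452 in the tcp set. Levels are CPM, counts scaled to library size with TMM factors. TCP21 had 58.3 to 64.9 CPM in tcpq submerged and 19.9 to 23.5 in tcpq mock libraries, 19.9 to 27.6 in tcp21 submerged and 27.9 to 33 in tcp21 mock libraries, against 73.5 to 83.4 in Col submerged and 83.1 to 102 in Col mock libraries. BAK1 had 70.8 to 85.7 CPM in submerged and 26 to 29.4 in mock bak1-3 bkk1-1 libraries, against 116 to 143 CPM in submerged and 69.6 to 86.9 in mock Col libraries. BKK1 had 18.7 to 19.7 CPM in submerged and 11.5 to 15.1 in mock bak1-3 bkk1-1 libraries, against 41.3 to 52.2 CPM in submerged and 30.9 to 44.2 in mock Col libraries. One genotype field disagrees with its title: replicate 1 of Col mock in the tcp set is named there as the double mutant. It was kept as Col by its title and strain, and its BAK1 level of 78.6 CPM lay between the 75.3 and 82.2 CPM of the other two Col mock libraries. Markers of root hair, root tip and leaf mesophyll were all detected in every library, and of 7 markers of endodermis and inner root only ESB1 was at or near 0.

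In bak1-3 bkk1-1, submerged seedlings had less transcript of most iron uptake genes and more of FRO3 than mock seedlings. All 6 genes with a test passed in edgeR, FRO2, FRO4, NAS1, NAS2 and NAS4 lower and FRO3 higher. Of all 20666 genes tested there, 53.6% passed in either direction, 26.5% higher and 27% lower in submerged libraries, so a call in itself was common. IRT1, given as description, had 29.1, 36.3 and 36.3 CPM in the submerged libraries, against 129, 102 and 146 CPM in the mock libraries. Every submerged library lay below every mock library, and the log2 fold change was -1.89 ± 0.15 (SE). FRO2, the reductase that works with IRT1, had 10.5, 12.7 and 10.6 CPM in submerged libraries and 54.7, 48.7 and 83.9 CPM in mock libraries. That fall was -2.48 ± 0.30 on the log2 scale (edgeR adjusted p = 5.65e-05). NAS1 fell furthest, to 2.44, 3.78 and 4.64 CPM in submerged libraries, against 76.3, 54.2 and 67.9 CPM in mock libraries, a log2 fold change of -4.19 ± 0.26 (edgeR adjusted p = 3.53e-08). NAS2 averaged 0.214 ± 0.21 CPM submerged and 3.19 ± 1.72 CPM mock (SD, n = 3 each), and its log2 fold change was -3.76 ± 0.61 (edgeR adjusted p = 3.7e-05). FRO4 and NAS4 fell by 2.31 ± 0.21 and 1.12 ± 0.16 on the log2 scale (edgeR adjusted p = 3.27e-08 and 8.11e-06). FRO3 rose to 218, 205 and 206 CPM in submerged libraries, against 128, 138 and 119 CPM in mock libraries (log2 fold change 0.71 ± 0.11, edgeR adjusted p = 1.8e-05). NAS3 stood at 2.4 ± 0.337 CPM submerged and 2.8 ± 0.574 CPM mock (SD, n = 3 each), with overlapping groups.

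Col of the bak set showed the same directions. All 6 genes with a test passed, 5 lower and FRO3 higher, where 50.5% of all genes passed, 25.7% higher and 24.8% lower. NAS1 had 10.9, 4.42 and 8.61 CPM in submerged Col libraries, against 72.3, 74.6 and 75.8 CPM in mock Col libraries. No submerged library came near a mock one, and the log2 fold change was -3.20 ± 0.23 (edgeR adjusted p = 1.61e-07). FRO4 stood at 2.99, 3.53 and 2.6 CPM in submerged libraries, against 13.5, 13.6 and 12.5 CPM in mock libraries (log2 fold change -2.12 ± 0.22, edgeR adjusted p = 2.42e-07). NAS2, FRO2 and NAS4 fell by 2.26 ± 0.45, 1.07 ± 0.28 and 0.65 ± 0.16 on the log2 scale (edgeR adjusted p = 0.000319, 0.00913 and 0.00205). FRO3 had 185, 138 and 182 CPM submerged and 79.2, 70.8 and 81.4 CPM mock (log2 fold change 1.13 ± 0.11, edgeR adjusted p = 8.98e-08). IRT1, as description, had 52, 46.5 and 52.6 CPM in submerged libraries, against 105, 71.9 and 80.5 CPM in mock libraries, without overlap (log2 fold change -0.77 ± 0.15). NAS3 had 4.32, 5.72 and 5.15 CPM submerged and 9.47, 7.6 and 7.66 CPM mock, also without overlap. FRO5 was low throughout this set, between 0 and 2.65 CPM in the 12 libraries. As description, it held 8 counts in all in submerged Col and 106 in mock Col, without overlap (log2 fold change -3.61 ± 0.80). In bak1-3 bkk1-1 it held 23 and 35 counts, with overlap (-0.67 ± 0.82). Summed CPM of the 9 root hair markers ran from 61.2 to 67.1 in submerged and 48.3 to 68.2 in mock Col libraries, while that of 5 leaf mesophyll markers ran from 16532 to 18948 in submerged and 35604 to 38098 in mock Col libraries, with 5 of 5 lower in submerged libraries of both genotypes. Root hair markers were higher in submerged libraries for 1 of 9 genes in bak1-3 bkk1-1 and 2 of 9 in Col, and no marker of endodermis and inner root passed in either. Their part in the changes was not tested, and in bulk seedlings fewer cells of a type and less RNA per cell cannot be told apart.

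**Figure D1:**
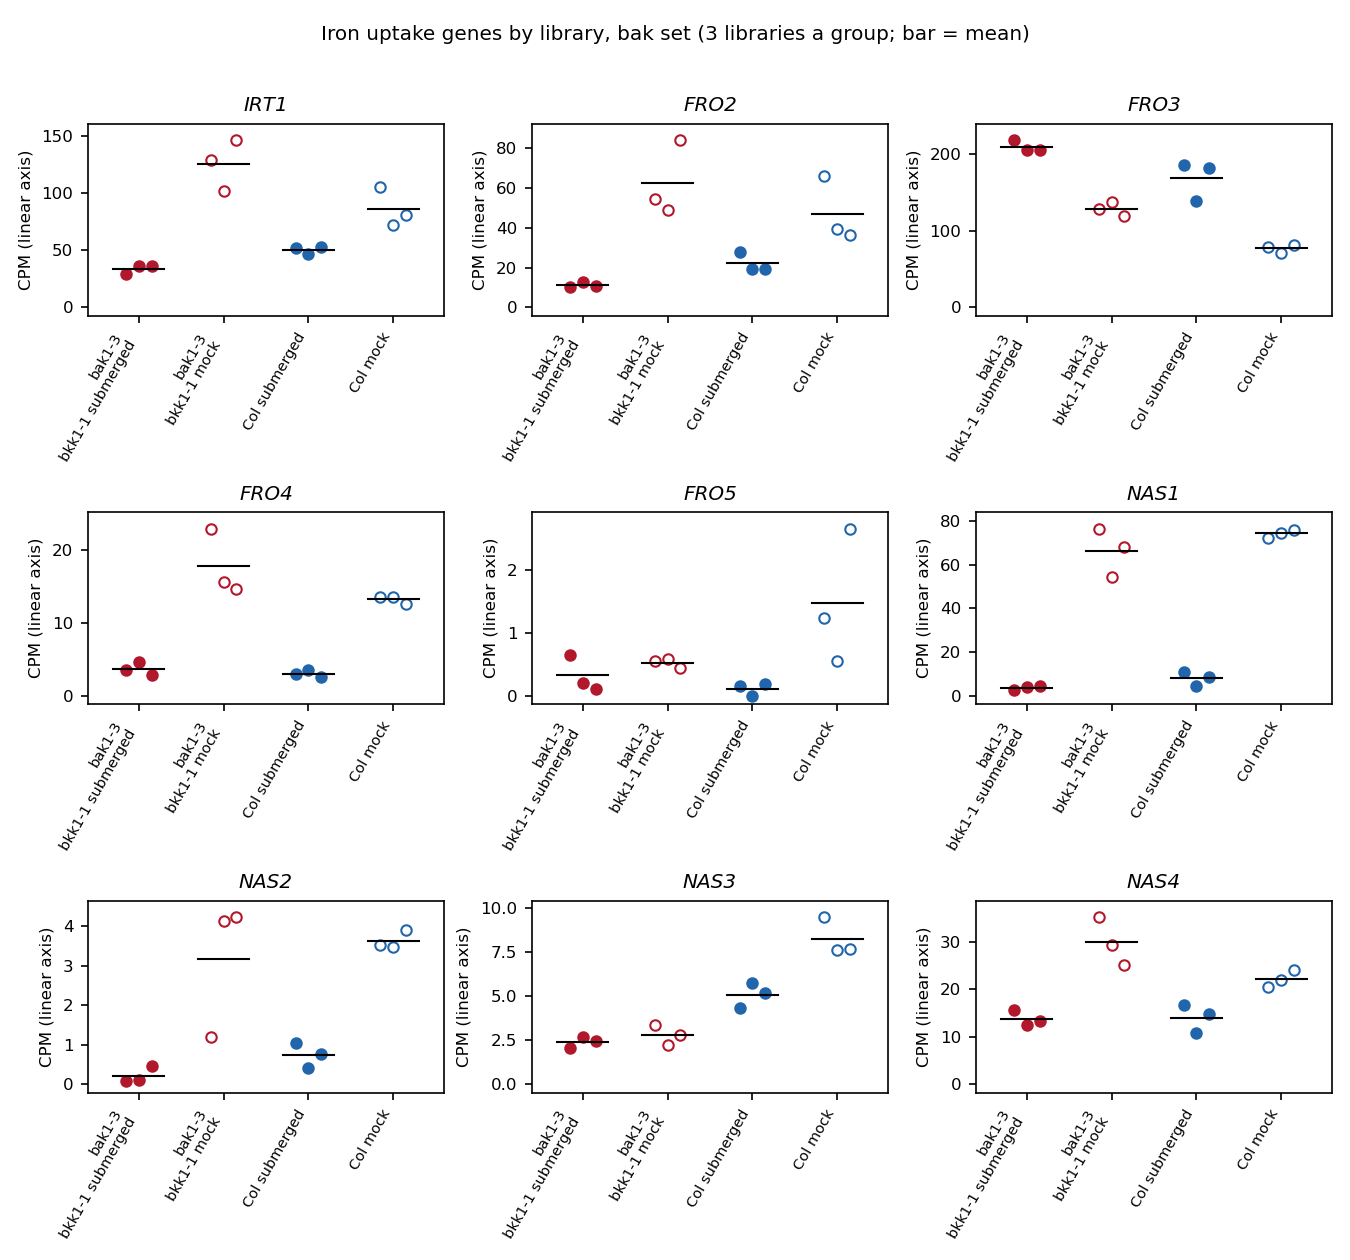
CPM of the 9 iron uptake genes in the 12 libraries of the bak set, 1 panel a gene, on linear axes; filled points are submerged, open points mock, bars are means of 3 libraries. NAS1 sits between 2.44 and 10.9 CPM in submerged libraries and between 54.2 and 76.3 CPM in mock libraries, and FRO3 is higher in submerged than in mock libraries of both genotypes.

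Between genotypes of the bak set, few of these genes passed in edgeR, and few of all genes did. In mock seedlings 1 of 6 tested genes passed: FRO3 averaged 129 ± 9.54 CPM in bak1-3 bkk1-1 and 77.1 ± 5.61 CPM in Col (SD, n = 3 each), a log2 fold change of 0.74 ± 0.11 (edgeR adjusted p = 0.000786). Only 0.944% of all genes passed in that comparison, 0.798% higher and 0.145% lower in the mutant. At an unadjusted p below 0.05 there were 3 of 6, beside 1896 of all 20666 genes. FRO4 and NAS4 did not pass (edgeR adjusted p = 0.426 and 0.305), though neither gene's groups overlapped. Their log2 fold changes were 0.43 ± 0.17 and 0.43 ± 0.15. FRO2, NAS1 and NAS2 did not pass and their groups overlapped (edgeR adjusted p = 0.728, 0.87 and 0.914). NAS3, as description, had 3.38, 2.23 and 2.78 CPM in bak1-3 bkk1-1 mock libraries, against 9.47, 7.6 and 7.66 CPM in Col mock libraries. The groups stood well apart, and the same order held submerged, at 2.03, 2.69 and 2.47 CPM in bak1-3 bkk1-1 and 4.32, 5.72 and 5.15 CPM in Col. IRT1 ranked highest in mock bak1-3 bkk1-1 (126 ± 22.3 CPM), then mock Col (85.9 ± 17.4 CPM), submerged Col (50.4 ± 3.39 CPM) and submerged bak1-3 bkk1-1 (33.9 ± 4.12 CPM; SD, n = 3 each), and only the first pair overlapped. Root hair markers summed to 81.8 to 95.4 CPM in mock bak1-3 bkk1-1 and 48.3 to 68.2 CPM in mock Col, with 2 of 9 genes higher, and their part was not tested.

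Submerged bak1-3 bkk1-1 against submerged Col gave 0 of 6 calls in edgeR, where 1.38% of all genes passed, 0.648% higher and 0.731% lower, and 2 of 6 by DESeq2. At an unadjusted p below 0.05 there were 3 of 6, beside 3052 of all 20666 genes. Of the markers only leaf mesophyll genes passed, 2 of 5, both lower in the mutant, and their part was not tested. FRO2 averaged 11.3 ± 1.24 CPM in the mutant and 22.2 ± 4.91 CPM in Col (SD, n = 3 each), without overlap (edgeR adjusted p = 0.181; DESeq2 adjusted p = 0.00235). NAS1 had 2.44, 3.78 and 4.64 CPM in the mutant and 10.9, 4.42 and 8.61 CPM in Col (edgeR adjusted p = 0.107), and it passed at 0.0035 without replicate 2 of submerged Col and by DESeq2 at 0.0276. The interaction, which asks whether submergence moved a gene by a different factor in the mutant than in Col, gave 0 of 6 calls in edgeR and 1 of 6, FRO2, by DESeq2. At an unadjusted p below 0.05 there were 3 of 6, beside 1579 of all 20666 genes. Over all genes 0.0484% passed the interaction, 0.00968% higher and 0.0387% lower. IRT1, as description, had an interaction of -1.13 ± 0.21 on the log2 scale. That of FRO5 was 2.93 ± 1.29, at few counts, and that of NAS3 0.47 ± 0.33.

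In the tcp set the picture differed between genotypes. IRT1 was listed at 0 counts in all 3 Col mock libraries, while submerged Col libraries held 12.1, 12 and 11.6 CPM. Submerged Col was thus at least 238-fold higher, taking 3 counts over the 3 mock libraries as the limit a count of 0 allows. In tcpq mock libraries IRT1 had 0, 1 and 1 counts, against 4.1, 2.36 and 1.13 CPM in tcpq submerged libraries, a ratio of submerged over mock of 85.2 with a 95% counting interval of 23.1 to 711. In tcp21 it was present under both treatments, at 14.2, 6.98 and 10.1 CPM submerged and 16.9, 14.3 and 8.63 CPM mock, with overlapping groups. The ranges of tcp21 mock, Col submerged and tcp21 submerged libraries overlapped, tcpq submerged libraries lay below them, and tcpq mock and Col mock libraries lay at or near 0. Intervals and floors cover counting error only.

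**Figure D2:**
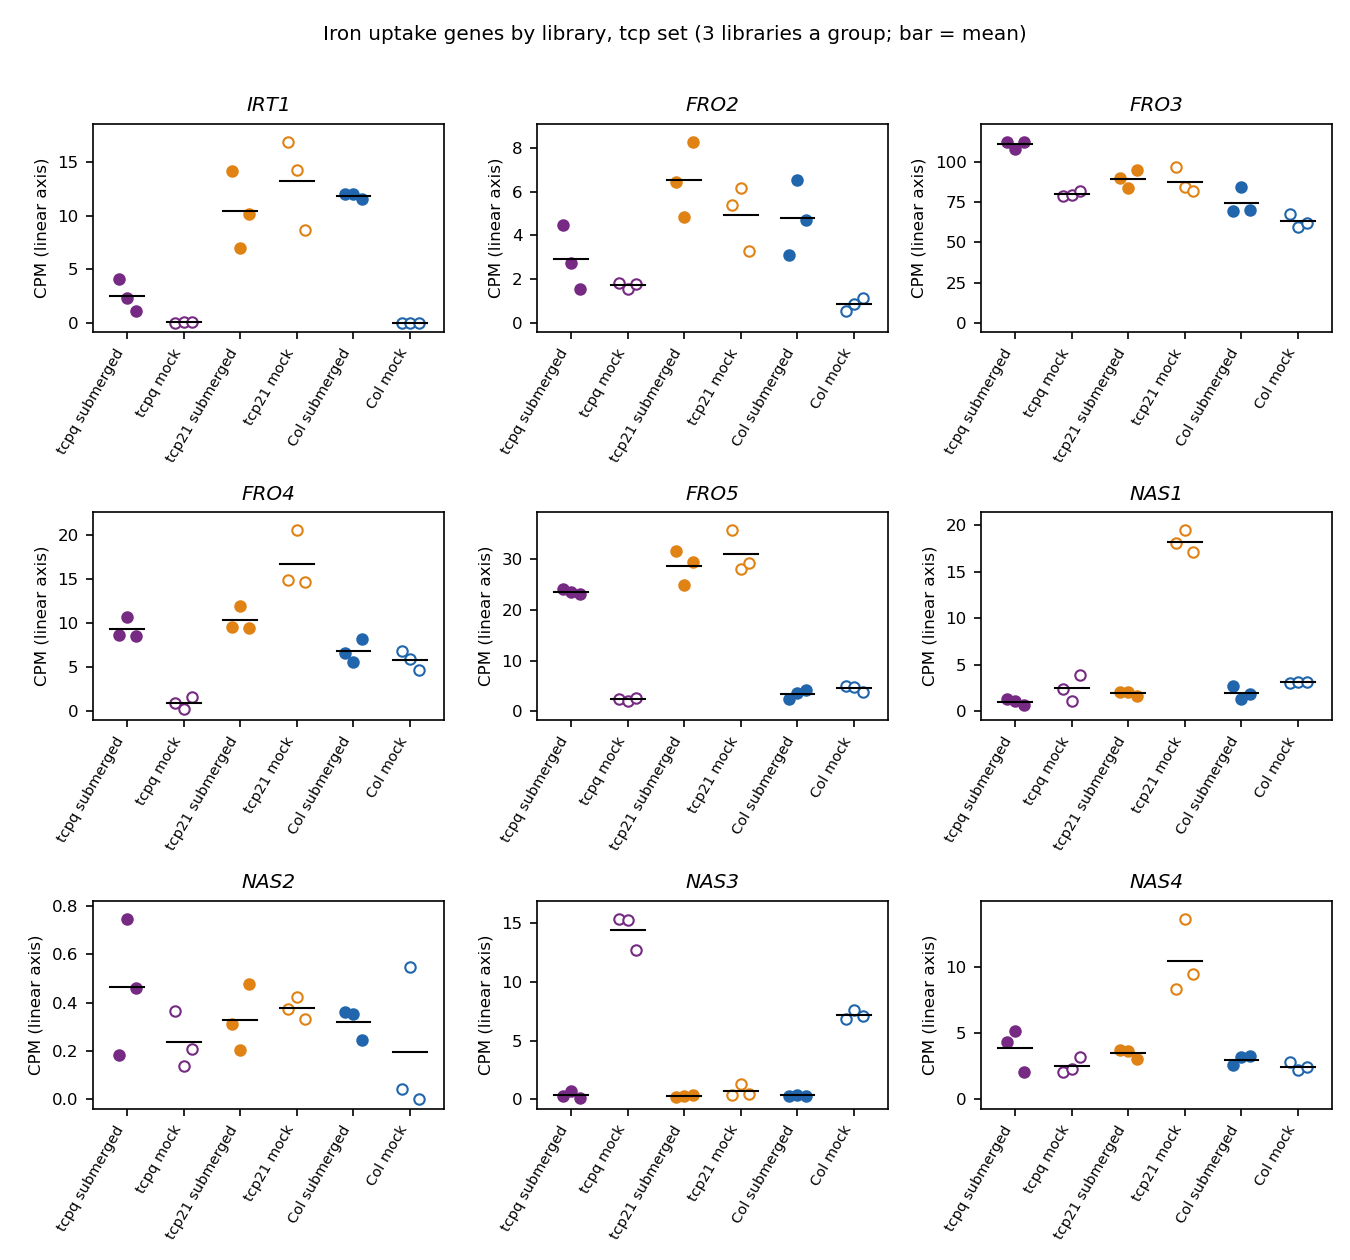
CPM of the 9 iron uptake genes in the 18 libraries of the tcp set, 1 panel a gene, on linear axes; filled points are submerged, open points mock, bars are means of 3 libraries. IRT1 is at or near 0 CPM in tcpq mock and Col mock libraries and between 8.63 and 16.9 CPM in tcp21 mock libraries, and NAS3 is at 6.85 CPM or more in tcpq mock and Col mock libraries only.

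Submerged tcpq differed from mock tcpq in 3 of the 5 genes with a test, FRO3 and FRO4 higher and NAS1 lower. Of all 20385 genes tested there, 63.9% passed, 32.9% higher and 31.1% lower. FRO4 had 8.63, 10.7 and 8.53 CPM in submerged tcpq libraries, against 0.947, 0.28 and 1.56 CPM in mock tcpq libraries (log2 fold change 3.28 ± 0.29, edgeR adjusted p = 3.81e-10). Its neighbour FRO5, as description, had 24.1, 23.6 and 23.2 CPM submerged and 2.37, 2.01 and 2.65 CPM mock (3.32 ± 0.17 on the log2 scale). For both reductase genes every submerged library lay above every mock library. FRO3 averaged 111 ± 2.4 CPM submerged and 80 ± 1.59 CPM mock (SD, n = 3 each; log2 fold change 0.48 ± 0.08, edgeR adjusted p = 1.03e-05). NAS1 had 1.35, 1.03 and 0.631 CPM submerged and 2.33, 1.07 and 3.91 CPM mock; the groups overlapped, and the edgeR adjusted p of 0.00322 became 0.0569 without replicate 3 of tcpq mock. NAS3, as description, had 0.306, 0.689 and 0.168 CPM in submerged libraries, against 15.4, 15.3 and 12.7 CPM in mock libraries, a log2 fold change of -5.28 ± 0.29, or -5.97 without replicate 2 of tcpq submerged. Leaf mesophyll markers rose with submergence here, 5 of 5, summing to 38925 to 42335 CPM in submerged and 21983 to 25367 CPM in mock tcpq libraries. Root hair markers were higher for 4 of 9 genes, summing to 86.6 to 100.3 CPM submerged and 75.7 to 85.9 CPM mock. Of 6 tested markers of endodermis and inner root 3 were higher and 2 lower, and the list summed to 126 to 134 CPM submerged and 91.8 to 95.8 CPM mock. The part of these markers was not tested. FRO2 and NAS4 did not pass (edgeR adjusted p = 0.145 and 0.104), but did at 0.0241 and 0.0064 without replicate 3 of tcpq submerged.

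Submerged tcp21 differed from mock tcp21 in another way, with FRO4, NAS1 and NAS4 lower, 3 of the 5 genes with a test. Among all genes 49.9% passed, 24.5% higher and 25.4% lower. NAS1 had 2.04, 2.04 and 1.64 CPM in submerged tcp21 libraries, against 18.1, 19.5 and 17.1 CPM in mock tcp21 libraries (log2 fold change -3.25 ± 0.23, edgeR adjusted p = 1.71e-12). NAS4 had 3.72, 3.62 and 3.06 CPM submerged and 8.31, 13.6 and 9.46 CPM mock (-1.57 ± 0.23, edgeR adjusted p = 1.88e-06). Neither gene's groups overlapped. FRO4 fell by 0.69 ± 0.17 on the log2 scale (edgeR adjusted p = 0.00144), while FRO5, as description, stayed within one range, at 31.6, 24.9 and 29.5 CPM submerged and 35.8, 28.1 and 29.3 CPM mock. FRO2 and FRO3 did not pass (edgeR adjusted p = 0.285 and 0.791), with log2 fold changes of 0.35 ± 0.27 and 0.03 ± 0.08. NAS3 averaged 0.299 ± 0.0743 CPM in submerged tcp21 and 0.734 ± 0.546 CPM in mock tcp21 (SD, n = 3 each), low in both. Root hair markers summed to 77.7 to 98.7 CPM in submerged and 105 to 110 CPM in mock tcp21 libraries, with 2 of 9 genes higher and 4 lower. Markers of endodermis and inner root summed to 118 to 124 CPM submerged and 164 to 179 CPM mock, with 1 of 6 tested genes higher and 1 lower. Leaf mesophyll markers summed to 44249 to 47316 CPM submerged and 44529 to 44843 CPM mock, with 1 of 5 higher. The part of these markers was not tested.

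Submerged Col of the tcp set had more FRO2 and FRO3 than mock Col, 2 of 5 genes with a test, where 50.5% of all genes passed, 27.4% higher and 23.1% lower. FRO2 had 3.09, 6.55 and 4.71 CPM in submerged libraries, against 0.534, 0.875 and 1.15 CPM in mock libraries (log2 fold change 2.48 ± 0.44, edgeR adjusted p = 6.87e-05). FRO2 thus differed in the direction opposite to that in Col of the bak set, and the 2 sets were normalised and fitted separately, so this contrast was not tested. FRO3 rose by 0.24 ± 0.08 on the log2 scale (edgeR adjusted p = 0.0165). That call ended without replicate 2 of Col submerged (0.154), replicate 2 or 3 of Col mock (0.0784 and 0.0506) or with only the compared groups in the fit (0.0573). NAS3, as description, had 0.321, 0.403 and 0.294 CPM in submerged libraries, against 6.85, 7.6 and 7.15 CPM in mock libraries, a log2 fold change of -4.39 ± 0.34. FRO4, NAS1 and NAS4 did not pass, with log2 fold changes of 0.21 ± 0.22, -0.63 ± 0.31 and 0.25 ± 0.31, though NAS1 passed at 0.0325 without replicate 1 of Col submerged and at 0.0443 with only the compared groups in the fit. Root hair markers summed to 52.8 to 59.2 CPM in submerged and 40.4 to 52.8 CPM in mock Col libraries, with 5 of 9 genes higher. Leaf mesophyll markers were higher for 3 of 5 genes, summing to 39006 to 40821 CPM submerged and 30005 to 35520 CPM mock. Of 6 tested markers of endodermis and inner root 2 were higher and 3 lower, and the list summed to 97.2 to 104 CPM submerged and 100.2 to 114 CPM mock. Their part was not tested.

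**Figure D3:**
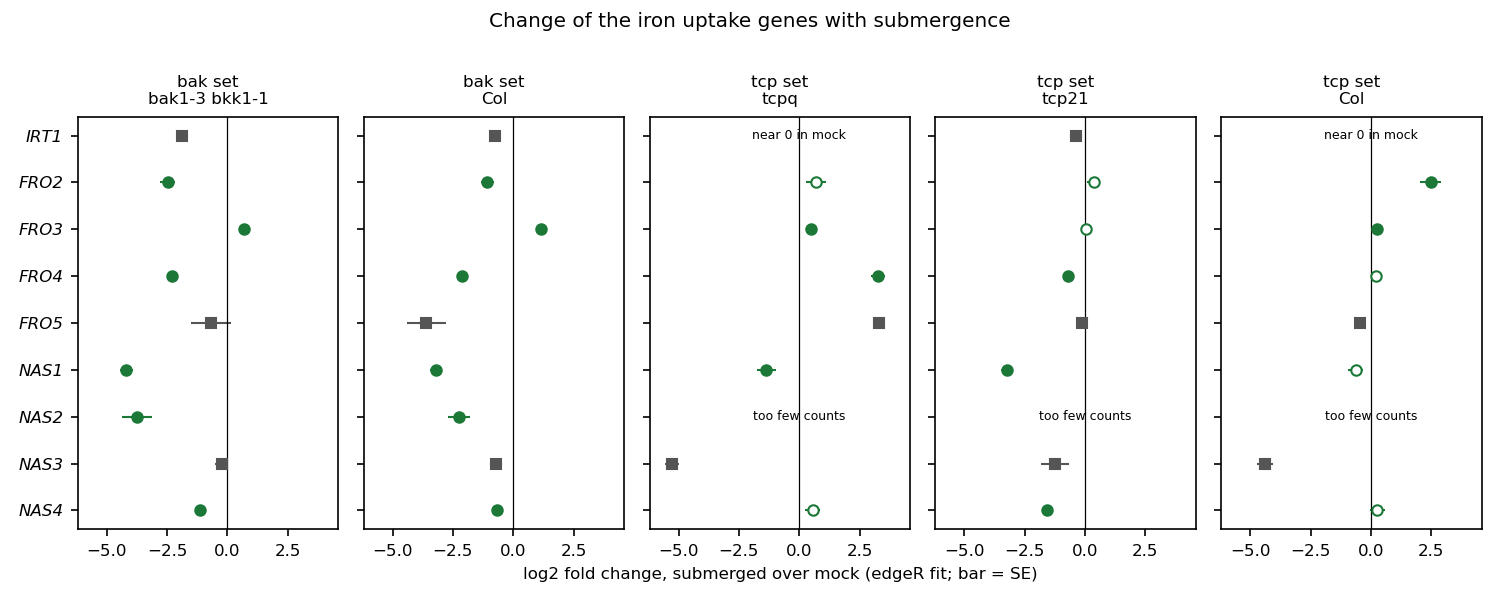
Log2 fold change of each iron uptake gene, submerged over mock, in the 5 genotype and set combinations, with SE bars where wider than the symbol; filled circles passed in edgeR, open circles did not, grey squares are IRT1, FRO5 and NAS3, given with no test. NAS1 lies left of 0 in all 5 panels, from -4.19 to -0.63, and FRO4 lies at -2.31 in bak1-3 bkk1-1 and at 3.28 in tcpq; no point is drawn where mock counts were at or near 0 or counts were too few.

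The interaction terms of the tcp set compared the submergence change of each mutant with that of Col. For tcp21, 4 of 5 genes passed, all with a lower change than in Col: FRO2 (-2.13 ± 0.53, edgeR adjusted p = 0.00395), FRO4 (-0.90 ± 0.28, 0.0153), NAS1 (-2.62 ± 0.42, 2.07e-05) and NAS4 (-1.82 ± 0.39, 0.000762), on the log2 scale. Of all genes, 31% passed it, 14.7% higher and 16.3% lower. The FRO4 call ended without replicate 3 of Col mock (0.0529) or replicate 3 of Col submerged (0.0589). For tcpq, FRO4 passed with a higher change than in Col (3.07 ± 0.38, edgeR adjusted p = 6.4e-07) and FRO2 with a lower one (-1.79 ± 0.63, 0.0308), 2 of 5 genes, where 34.5% of all genes passed, 17.3% higher and 17.1% lower. The FRO2 call did not hold when any of 7 libraries was left out: replicates 1 and 2 of Col mock, 2 of Col submerged, 1 and 3 of tcpq mock, and 2 and 3 of tcpq submerged, with edgeR adjusted p from 0.0513 to 0.102. FRO3 did not pass (0.127), but did at 0.0248 without replicate 2 of Col submerged. Marker lists passed these interactions too. For tcp21, 5 of 9 root hair and 2 of 5 leaf mesophyll markers had a lower change than in Col, and of 6 tested markers of endodermis and inner root 1 had a higher and 3 a lower one. For tcpq, 1 of 9 root hair, 5 of 5 leaf mesophyll and 3 of 6 endodermis and inner root markers had a higher change and none a lower one. Their part was not tested.

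Mock tcp21 stood apart from mock Col in all 5 genes with a test, FRO2, FRO3, FRO4, NAS1 and NAS4, each higher. Among all genes 47.4% passed, 24% higher and 23.4% lower. NAS1 had 18.1, 19.5 and 17.1 CPM in mock tcp21 libraries, against 2.98, 3.12 and 3.19 CPM in mock Col libraries (log2 fold change 2.56 ± 0.21, edgeR adjusted p = 8.07e-11). FRO2 had 5.4, 6.2 and 3.26 CPM in mock tcp21 and 0.534, 0.875 and 1.15 CPM in mock Col (2.60 ± 0.42, edgeR adjusted p = 2.82e-05). These groups did not overlap, nor did those of NAS4 (2.05 ± 0.24, 1.34e-07), FRO4 (1.51 ± 0.19, 3.7e-07) or FRO3 (0.48 ± 0.08, 2.46e-05; log2 fold change ± SE and edgeR adjusted p). As description, IRT1 was at least 282-fold higher in mock tcp21, by the limit of 3 counts over the Col group. FRO5 had 35.8, 28.1 and 29.3 CPM in mock tcp21 and 5.03, 4.81 and 3.76 CPM in mock Col, a log2 fold change of 2.78 ± 0.15. NAS3 went the other way, at 0.346, 1.36 and 0.498 CPM in mock tcp21 and 6.85, 7.6 and 7.15 CPM in mock Col (-3.35 ± 0.28). That value was -2.86 without replicate 1 of tcp21 mock and -4.16 without replicate 2. In mock tcp21, 8 of 9 root hair markers were higher, and of 6 tested markers of endodermis and inner root 4 were higher and 1 lower. Of 4 root tip markers 0 passed. Root hair markers summed to 105 to 110 CPM in mock tcp21 and 40.4 to 52.8 CPM in mock Col, with RHD6 the marker that did not pass. Those of endodermis and inner root summed to 164 to 179 CPM in mock tcp21 and 100.2 to 114 CPM in mock Col. Leaf mesophyll markers were higher for 4 of 5 genes, summing to 44529 to 44843 CPM in mock tcp21 and 30005 to 35520 CPM in mock Col. Their part in the iron gene differences was not tested.

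Mock tcpq against mock Col gave 2 calls of 5, FRO4 lower and FRO3 higher, where 48.9% of all genes passed, 26.4% higher and 22.5% lower. FRO4 had 0.947, 0.28 and 1.56 CPM in mock tcpq libraries, against 6.81, 5.96 and 4.7 CPM in mock Col libraries (log2 fold change -2.62 ± 0.32, edgeR adjusted p = 1.74e-07). FRO3 was higher by 0.34 ± 0.08 (edgeR adjusted p = 0.00112). NAS1 did not pass (0.382) but was lower at 0.0353 without replicate 3 of tcpq mock. FRO2 had 1.82, 1.54 and 1.77 CPM in mock tcpq and 0.534, 0.875 and 1.15 CPM in mock Col, without overlap. It did not pass in edgeR (log2 fold change 1.04 ± 0.53, adjusted p = 0.114), but did by DESeq2 (0.0291) and with only the compared groups in the fit (0.019). As description, FRO5 was lower in mock tcpq by a log2 fold change of -0.95 ± 0.22, and NAS3 was higher by 1.01 ± 0.16, at 14.5 ± 1.52 CPM in mock tcpq and 7.2 ± 0.38 CPM in mock Col (SD, n = 3 each). IRT1 was at or under 3 counts in both groups, so no fold is given. Root hair markers were higher in mock tcpq for 6 of 9 genes, summing to 75.7 to 85.9 CPM in mock tcpq and 40.4 to 52.8 CPM in mock Col. Leaf mesophyll markers were lower for 5 of 5 genes, summing to 21983 to 25367 CPM in mock tcpq and 30005 to 35520 CPM in mock Col. Of 6 tested markers of endodermis and inner root 2 were higher and 3 lower, and the list summed to 91.8 to 95.8 CPM in mock tcpq and 100.2 to 114 CPM in mock Col. Their part was not tested.

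Mock tcpq against mock tcp21 gave 4 calls of 5, FRO2, FRO4, NAS1 and NAS4, each lower in tcpq, where 53.9% of all genes passed, 26.7% higher and 27.2% lower. Their log2 fold changes were -1.57 ± 0.34, -4.13 ± 0.26, -2.88 ± 0.20 and -2.03 ± 0.23 (edgeR adjusted p = 0.000502, 7.71e-13, 3.03e-12 and 3.81e-08). FRO3 did not pass (edgeR adjusted p = 0.152). FRO5, as description, averaged 2.34 CPM in mock tcpq and 31 CPM in mock tcp21, without overlap (log2 fold change -3.73 ± 0.16). As description, the ratio of IRT1 in mock tcpq over mock tcp21 was 0.00195 with a 95% counting interval of 0.000235 to 0.00705. NAS3 was higher in mock tcpq by 4.36 ± 0.24 on the log2 scale. That value was 3.87 without replicate 1 of tcp21 mock and 5.17 without replicate 2. Markers of endodermis and inner root summed to 91.8 to 95.8 CPM in mock tcpq and 164 to 179 CPM in mock tcp21, with 4 of 6 tested genes lower and 1 higher. Leaf mesophyll markers were lower in mock tcpq for 5 of 5 genes, summing to 21983 to 25367 CPM in mock tcpq and 44529 to 44843 CPM in mock tcp21. Root hair markers were lower for 3 of 9 genes, summing to 75.7 to 85.9 CPM in mock tcpq and 105 to 110 CPM in mock tcp21. Their part was not tested.

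In submerged tcp21 against submerged Col, FRO3 and FRO4 were higher, 2 of 5, where 27% of all genes passed, 12.2% higher and 14.8% lower. FRO4 averaged 10.3 ± 1.4 CPM in submerged tcp21 and 6.77 ± 1.28 CPM in submerged Col (SD, n = 3 each; log2 fold change 0.60 ± 0.20, edgeR adjusted p = 0.0259). FRO3 was higher by 0.26 ± 0.08 (edgeR adjusted p = 0.0176), with overlapping groups. FRO2, NAS1 and NAS4 did not pass (edgeR adjusted p = 0.219, 0.927 and 0.618). FRO4 did not pass without replicate 1 or 2 of Col submerged (0.0817 and 0.0942), without replicate 2 of tcp21 submerged (0.121) or with the older quasi-likelihood method (0.061). FRO3 did not pass without replicate 1 or 3 of Col submerged (0.103 and 0.0926) or replicate 3 of tcp21 submerged (0.077). Markers were higher in submerged tcp21 for 2 of 9 root hair, 1 of 4 root tip, 1 of 5 leaf mesophyll and 2 of 6 tested endodermis and inner root genes, none was lower, and their part was not tested.

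In submerged tcpq against submerged Col, FRO3 was higher, 1 of 5, at 113, 108 and 113 CPM in submerged tcpq and 69.6, 84.6 and 70.3 CPM in submerged Col (log2 fold change 0.57 ± 0.08, edgeR adjusted p = 1.12e-05). Of all genes, 16.9% passed, 8.71% higher and 8.17% lower. FRO2 would join as lower without replicate 1 of Col submerged (edgeR adjusted p = 0.0464) or replicate 1 of tcpq submerged (0.0323), and NAS1 without replicate 2 of Col submerged (0.0435), with only the compared groups in the fit (0.0412) or with DESeq2 (0.0349). Submerged tcpq against submerged tcp21 gave FRO2 lower (-1.23 ± 0.32, edgeR adjusted p = 0.0139) and FRO3 higher (0.31 ± 0.08, 0.0115), 2 of 5, where 13.2% of all genes passed, 8.02% higher and 5.22% lower. The FRO2 call ended without replicate 3 of tcp21 submerged (0.0608) or replicate 3 of tcpq submerged (0.0966), and the FRO3 call without replicate 1 or 2 of tcp21 submerged (0.0525 and 0.0712). NAS1 had 1.35, 1.03 and 0.631 CPM in submerged tcpq and 2.04, 2.04 and 1.64 CPM in submerged tcp21, without overlap. It did not pass in edgeR (-0.99 ± 0.42, adjusted p = 0.121), but was lower by DESeq2 (0.0439) and with only the compared groups in the fit (0.04). Markers were higher in submerged tcpq than in submerged Col for 2 of 9 root hair, 2 of 4 root tip and 4 of 6 tested endodermis and inner root genes. Against submerged tcp21 only leaf mesophyll markers passed, 3 of 5, all lower in submerged tcpq. Their part was not tested. FRO5, as description, averaged 23.6 ± 0.46 CPM in submerged tcpq and 28.6 ± 3.45 CPM in submerged tcp21, against 3.34 ± 0.889 CPM in submerged Col (SD, n = 3 each), where neither mutant overlapped Col. IRT1 averaged 2.53 ± 1.49 CPM in submerged tcpq and 10.4 ± 3.6 CPM in submerged tcp21, against 11.9 ± 0.274 CPM in submerged Col. NAS3 lay between 0.168 and 0.689 CPM in all 9 submerged libraries of the set.

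FRO5 also took a different share of the FRO4 and FRO5 counts in different groups, which describes the gene chosen for its change. In the tcp set it made up 68.8% to 73.6% of their summed counts in tcpq submerged, 63% to 87.8% in tcpq mock, 67.6% to 76.7% in tcp21 submerged and 57.8% to 70.6% in tcp21 mock libraries. Col libraries lay below all of these, at 26.5% to 38.7% submerged and 42.5% to 44.7% mock. The widest interval, for the tcpq mock library with 49 counts, ran from 75.2% to 95.4% (95% Clopper-Pearson). In the bak set the share was 0% to 17.5% over the 12 libraries. So FRO4 led in the bak set and in Col of the tcp set, and FRO5 led in tcp21 and tcpq.

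**Figure D4:**
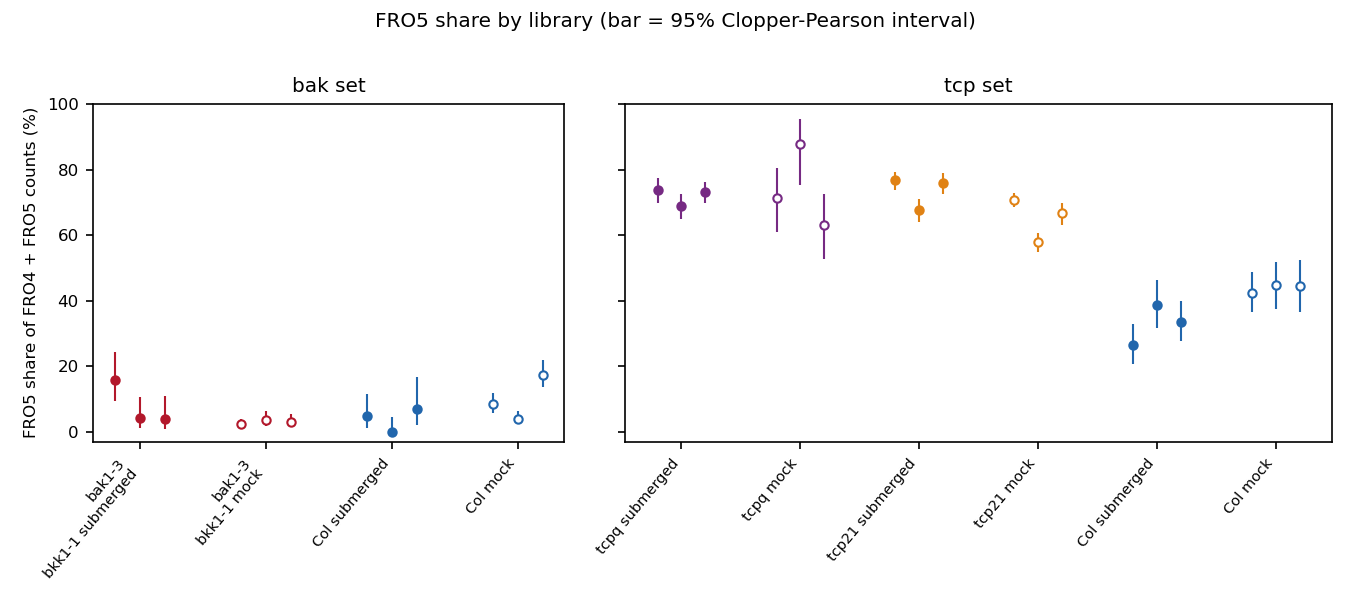
Share of FRO5 in the summed FRO4 and FRO5 counts of each library, in percent, with 95% Clopper-Pearson intervals, for the bak set (left) and the tcp set (right); filled points are submerged, open points mock. The 12 tcpq and tcp21 libraries lie between 57.8% and 87.8%, above the 6 Col libraries of the tcp set, and the 12 bak set libraries lie at or below 17.5%.

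Levels of different genes were compared as CPM per kb of exon. In mock Col of the bak set IRT1 (54.9) and NAS1 (53.1) stood highest, followed by FRO3 (27.7), FRO2 (16.5), NAS4 (15.4), NAS3 (5.87), FRO4 (5.65), NAS2 (2.8) and FRO5 (0.621). In mock Col of the tcp set FRO3 stood highest at 22.6, then NAS3 at 5.13 and FRO4 at 2.49, and IRT1 was at 0. In mock tcp21 the order was FRO3 (31.5), FRO5 and NAS1 (both 13), IRT1 (8.49), NAS4 (7.25) and FRO4 (7.14). FRO3 was the highest of the 4 reductase genes per length in every one of the 10 groups, from 22.6 to 75.3 CPM per kb.

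The 4 NAS genes summed to 14 ± 0.67 CPM per kb in submerged bak1-3 bkk1-1 and 72.4 ± 9.27 in mock bak1-3 bkk1-1, and to 19.6 ± 4.2 in submerged Col and 77.1 ± 2.01 in mock Col of the bak set (SD, n = 3 each). NAS4 made up 68.1% ± 7.6 of that sum in submerged bak1-3 bkk1-1 and 28.6% ± 3.75 in mock bak1-3 bkk1-1. NAS1 made up 18.5% ± 5.38 and 65.1% ± 3.86 in the same groups. In the tcp set the sum was 4.03 ± 1.52 in submerged tcpq and 14 ± 0.536 in mock tcpq, 4.23 ± 0.271 in submerged tcp21 and 21.1 ± 3.09 in mock tcp21, and 3.96 ± 0.261 in submerged Col and 9.22 ± 0.323 in mock Col. The leading gene of the mock groups differed: NAS3 made up 73.8% ± 9.24 in mock tcpq and 55.7% ± 1.19 in mock Col, while NAS1 made up 62.3% ± 5.43 in mock tcp21. In all 3 submerged groups of the set NAS4 led, with 65.7% ± 4.24 in tcpq, 56.7% ± 2.24 in tcp21 and 53.1% ± 9.38 in Col.

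**Figure D5:**
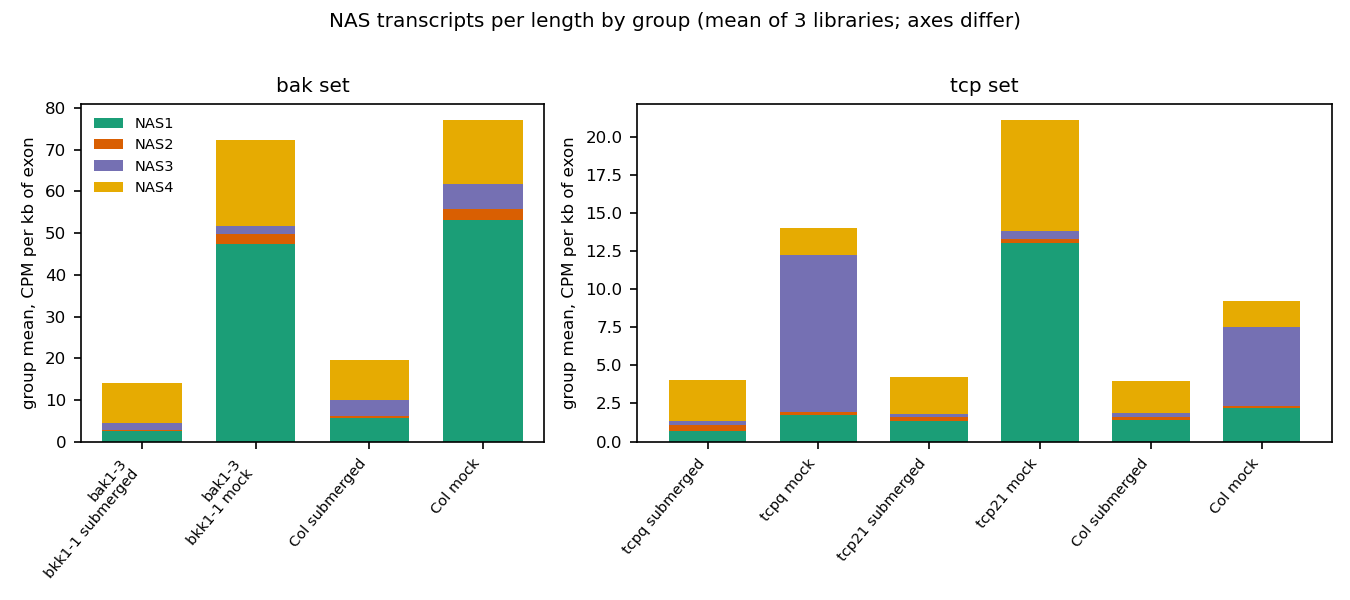
Group means of the 4 NAS genes in CPM per kb of exon, stacked, for the bak set (left) and the tcp set (right; the axes differ), 3 libraries a group. The mean of the library shares is 65.1% for NAS1 in mock bak1-3 bkk1-1 and 73.8% for NAS3 in mock tcpq. NAS4 is the largest part in all 5 submerged groups.

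Mock Col stood at other levels in the 2 sets, while the labels give both the same tissue, age and treatment. IRT1 averaged 85.9 ± 17.4 CPM in Col mock of the bak set and 0 in that of the tcp set, FRO2 47.2 ± 16.3 and 0.853 ± 0.308, NAS1 74.2 ± 1.75 and 3.09 ± 0.105, and NAS3 8.24 ± 1.06 and 7.2 ± 0.38 (SD, n = 3 each). Root hair markers summed to 48.3 to 68.2 CPM in the bak set group and 40.4 to 52.8 CPM in the tcp set group. CYP82C4, a gene of the iron deficiency response, averaged 25.4 CPM in the one and was at 0 in the other, as bHLH100 was at 6.93 CPM and 0. CYP82C4 was chosen here after its values were seen. The tables were normalised separately, and set and any batch cannot be told apart, so these values stand side by side with no test.

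Other genes of iron handling, 53 in 5 lists, showed where these 9 genes stood in their pathway. In submerged against mock bak1-3 bkk1-1, 9 rose and 23 fell of 50 tested, with a median log2 fold change of -0.42, against -0.015 over all genes. Of all genes tested there, 26.5% rose and 27% fell. In Col of the bak set 16 rose and 20 fell of 50, with a median of -0.16, against 0.0086 over all genes, of which 25.7% rose and 24.8% fell. Among genes of the root surface list CYP82C4 fell by 4.75 ± 0.55 on the log2 scale in bak1-3 bkk1-1 (edgeR adjusted p = 4.2e-05), and F6'H1, which makes coumarins that mobilise iron, by 1.27 ± 0.19 (2.23e-05). The vacuolar zinc transporter gene MTP3 fell by 1.77 ± 0.22 there (2.23e-06). In Col the nicotianamine transporter gene ZIF1 rose by 1.05 ± 0.12 (7.94e-07), and NRAMP1 fell by 0.60 ± 0.12 (0.00027). The chloroplast reductase gene FRO7 fell by 3.10 ± 0.33 in bak1-3 bkk1-1 (3.61e-05) and by 2.76 ± 0.32 in Col (7.48e-05), and FRO6 fell by 3.16 ± 0.27 and 2.93 ± 0.27 (3.7e-06 and 6.19e-06). Of the metal nicotianamine transporters YSL2 fell by 1.66 ± 0.10 in bak1-3 bkk1-1 and 1.72 ± 0.10 in Col (2.72e-10 and 1.4e-10), and YSL3 rose by 1.19 ± 0.10 and 1.53 ± 0.10 (1.51e-08 and 6.59e-10). The ferritin gene FER3 fell by 1.23 ± 0.26 and 1.57 ± 0.25 (0.00189 and 0.000318).

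FIT and the genes bHLH38, bHLH39, bHLH100 and bHLH101 did not all follow IRT1 in the bak set. FIT fell with submergence in bak1-3 bkk1-1 (log2 fold change -1.03 ± 0.24, edgeR adjusted p = 0.00117) and in Col (-0.82 ± 0.21, 0.00355). bHLH101 rose in both, by 0.79 ± 0.22 (0.0076) and 1.70 ± 0.26 (9.69e-05). bHLH39 and bHLH38 rose in Col (1.37 ± 0.34, 0.00526, and 0.86 ± 0.33, 0.0372), and bHLH100 fell in bak1-3 bkk1-1 (-1.05 ± 0.26, 0.00455). In mock bak1-3 bkk1-1 against mock Col, 9 of 50 other iron genes were higher and 0 lower, 6 of them among 18 tested regulators. Of all genes, 0.798% were higher there and 0.145% lower. bHLH100 averaged 45.3 CPM in mock bak1-3 bkk1-1 and 6.93 CPM in mock Col (log2 fold change 2.72 ± 0.29, edgeR adjusted p = 0.000615). bHLH38 was higher by 2.31 ± 0.28 (9.23e-05), bHLH39 by 2.07 ± 0.32 (0.00829) and bHLH101 by 1.63 ± 0.27 (0.00635), while FIT did not pass (-0.22 ± 0.20, 0.813). IRT2, a close relative of IRT1, was higher by 1.55 ± 0.24 (0.00128). Submerged bak1-3 bkk1-1 against submerged Col gave 1 call of 50, AT1G74770 higher (0.56 ± 0.13, 0.0354), where 1.38% of all genes passed. At an unadjusted p below 0.05 there were 17 of 50, beside 3052 of all 20666 genes. No other iron gene passed there without replicate 2 or 3 of Col submerged or replicate 2 of bak1-3 bkk1-1 submerged, where the count was 0, and DESeq2 called 5. The interaction gave 0 of 50 in edgeR, where 0.0484% of all genes passed, and 1 call by DESeq2. At an unadjusted p below 0.05 it gave 15, beside 1579 of all 20666 genes.

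With submergence in the tcp set, 20 other iron genes rose and 15 fell in tcpq, 9 rose and 21 fell in tcp21, and 16 rose and 18 fell in Col, of 49 tested. The medians were 0.22, -0.22 and 0.09 on the log2 scale, against 0.012, -0.014 and 0.036 over all genes. Of all genes, 32.9% rose and 31.1% fell in tcpq, 24.5% and 25.4% in tcp21, and 27.4% and 23.1% in Col. bHLH101 rose in all 3 genotypes, by 2.12 ± 0.24 in tcpq (edgeR adjusted p = 1.6e-08), 3.63 ± 0.28 in tcp21 (1.31e-11) and 1.89 ± 0.25 in Col (4.07e-07). FIT rose in tcpq (0.83 ± 0.27, 0.00894), fell in tcp21 (-0.98 ± 0.21, 0.000249) and did not pass in Col (0.54 ± 0.28, 0.109). bHLH38 rose in tcpq (1.96 ± 0.34, 1.07e-05), tcp21 (0.78 ± 0.31, 0.0355) and Col (2.16 ± 0.52, 0.00105), and bHLH39 in tcpq (0.70 ± 0.21, 0.00639) and Col (1.12 ± 0.27, 0.00172). bHLH100 held only 21 counts in submerged Col and 0 in mock Col libraries. The proton pump gene AHA2 fell in tcpq (-0.85 ± 0.07, 2.53e-11), tcp21 (-1.34 ± 0.07, 4.4e-15) and Col (-0.63 ± 0.07, 2.62e-08), and the coumarin exporter gene ABCG37 in all 3 as well (-0.73 ± 0.07, -1.16 ± 0.07 and -0.95 ± 0.07). FRO6 fell in all 3 genotypes (-0.79 ± 0.09, -1.14 ± 0.09 and -1.19 ± 0.09), as did FRO7 (-1.68 ± 0.12, -1.36 ± 0.12 and -0.99 ± 0.13). FER3 rose in Col by 1.34 ± 0.09 (1.01e-12), against its fall in Col of the bak set.

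In mock tcp21 against mock Col, 26 other iron genes were higher and 11 lower of 49, with a median of 0.35 on the log2 scale, against 0.0026 over all genes. Of all genes, 24% were higher there and 23.4% lower. FIT was higher by 1.79 ± 0.23 (edgeR adjusted p = 4.24e-07), bHLH39 by 1.29 ± 0.26 (0.000359) and bHLH38 by 2.19 ± 0.51 (0.00077), while bHLH101 was lower by 1.43 ± 0.40 (0.00437). MTP3 was higher by 1.66 ± 0.20 (1.01e-07), YSL2 by 1.55 ± 0.11 (7.63e-11) and the citrate exporter gene FRD3 by 1.81 ± 0.17 (9.03e-10), and FER3 was lower by 1.20 ± 0.09 (5.28e-11). In mock tcpq against mock Col 14 were higher and 17 lower, with a median of -0.12, against 0.038 over all genes, of which 26.4% were higher and 22.5% lower. bHLH39 was higher there (1.21 ± 0.26, 0.000673), and FIT, bHLH38, bHLH100 and bHLH101 did not pass. IRT3, a zinc and iron transporter gene, was lower in tcpq by 0.89 ± 0.07 (8.18e-11) and FER3 by 1.33 ± 0.10 (4.09e-12), while NRAMP1 was higher by 0.76 ± 0.08 (1.7e-08). In mock tcpq against mock tcp21, 6 were higher and 23 lower, where 26.7% and 27.2% of all genes were. MTP3 was lower there by 2.63 ± 0.22 (5.37e-11), YSL2 by 2.07 ± 0.12 (2.45e-13) and FIT by 1.90 ± 0.22 (5.85e-08).

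Submerged genotypes of the tcp set gave these counts: 20 of 49 other iron genes passed in tcpq against Col, 18 in tcp21 against Col and 5 in tcpq against tcp21. Of all genes 16.9%, 27% and 13.2% passed in these comparisons, so the count of 5 was near the background. These counts moved with single libraries, between 9 and 17, 9 and 15, and 1 and 5 calls when 1 library was left out. The lowest counts came without replicate 2 of tcpq submerged, replicate 3 of Col submerged and replicate 1 of tcp21 submerged. In the interaction with submergence, 15 were higher and 9 lower for tcpq, where 17.3% and 17.1% of all genes were, and 7 higher and 15 lower for tcp21, where 14.7% and 16.3% were. FIT had a lower change in tcp21 than in Col (-1.52 ± 0.34, edgeR adjusted p = 0.0013), in the direction of FRO2 and NAS1, and bHLH101 a higher one (1.74 ± 0.44, 0.0032).

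Across libraries, log2 CPM of IRT1 and FRO2 had a Pearson r of 0.97 over the 12 libraries of the bak set and 0.90 over the 18 of the tcp set. IRT1 and NAS3 had an r of 0.26 and -0.90, IRT1 and NAS1 0.93 and 0.21, and FRO4 and FRO5 0.67 and 0.76. These are descriptions over libraries that share groups and treatments. Among 20068 genes kept in both sets, those ranked most like IRT1 by the lower of the 2 r were ROC1 (0.916), AT2G40460 (0.912), PSBQA (0.905), AK3 (0.903) and AT3G50685 (0.903). For FRO5 they were ABCB2 (0.816), AT3G28270 (0.813), GSO1 (0.808), ABCC4 (0.798) and SQE3 (0.795). For NAS3 they were AT5G48470 (0.837), AT4G31040 (0.826), SWA1 (0.815), the ferritin gene FER2 (0.814) and ABH1 (0.809). No other iron uptake gene described here was among the 5 nearest of any of the 3.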

How the data were processed

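Poly-A RNA-seq of 30 Arabidopsis whole-seedling libraries was used as 2 tables of raw read counts per gene, deposited by the authors. Per the submitters' processing notes, fastp 0.23.1, STAR 2.7.9a and the TAIR10 genome were used; the counting tool and strand setting are not stated there. Of 32833 gene IDs, 32548 matched the RefSeq TAIR10.1 table, which gave coordinates and sequences.

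The bak and tcp tables were fitted apart from each other in edgeR 4.0.16 (R 4.3.3), each with all its groups, TMM scaling and the robust quasi-likelihood test. The filterByExpr filter kept 20666 genes (bak) and 20385 (tcp). Benjamini-Hochberg adjusted p below 0.05 over all genes was called. The fit was tested on simulated data. Alternatives were RLE scaling, DESeq2 1.42.0, no filter, a replicate block, only the compared groups in the fit, each library left out, and the older quasi-likelihood method, added after seeing the data.

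The members and lists were chosen with earlier results of these data known. Not every member was named in every comparison, and a gene left unnamed may still have differed. Genes of each other iron list were named from up to 3 called genes with the smallest adjusted p, plus FIT, bHLH38, bHLH39, bHLH100 and bHLH101. A coding base identity is a share of aligned columns.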

Additional observations from a re-analysis of the deposited data

Results flagged for a closer look

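Submergence moved some iron uptake genes by a different factor in a tcp set mutant than in Col, by the interaction term of the edgeR fit over all genes. For tcp21 the interaction was -2.13 for FRO2 (edgeR adjusted p = 0.00395), -0.90 for FRO4 (0.0153), -2.62 for NAS1 (2.07e-05) and -1.82 for NAS4 (0.000762), on the log2 scale. For tcpq it was -1.79 for FRO2 (0.0308) and 3.07 for FRO4 (6.4e-07). The tcp21 interaction of FRO4 did not pass without replicate 3 of Col mock (0.0529) or replicate 3 of Col submerged (0.0589). That of FRO2 in tcpq did not pass when any of 7 single libraries was left out, with adjusted p between 0.0513 and 0.102. Both mutants were set against the same Col libraries. Marker genes passed these interactions too. For tcp21, 5 of 9 root hair and 2 of 5 leaf mesophyll markers were lower, and of 6 tested markers of endodermis and inner root 1 was higher and 3 were lower, where 14.7% of all genes were higher and 16.3% lower. For tcpq, 1 of 9 root hair, 5 of 5 leaf mesophyll and 3 of 6 endodermis and inner root markers were higher, where 17.3% of all genes were higher and 17.1% lower. Their part in these interactions was not tested.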

How the results depend on the processing

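Counts of calls for submergence in each genotype stayed within 1.5 times under RLE scaling, DESeq2, no filter, the replicate block, the older method and the fit of only the compared groups, as did those between mock genotypes of the tcp set. Other counts moved, and the cause was not tested. DESeq2 called 322 genes (edgeR 195) between bak1-3 bkk1-1 and Col in mock, 677 (285) in submerged seedlings and 92 (10) for the interaction. It called 2 members (0) in the submerged comparison, 1 (0) in the interaction, and 5 (1) and 1 (0) other iron genes there. In the bak set interaction, RLE scaling left 4 genes and the replicate block 5. In submerged bak1-3 bkk1-1 against Col, 2 other iron genes passed with no filter and 2 with the replicate block, and 1 member passed with only the compared groups fitted. In submerged tcp21 against Col the older method called 1 member (2). In submerged tcpq against Col, DESeq2 and the fit of only the compared groups called 2 members each (1), and in submerged tcpq against tcp21 that fit called 8 other iron genes (5).

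Leaving out 1 library gave 124 to 226 genes for mock bak1-3 bkk1-1 against Col (lowest without replicate 2 of bak1-3 bkk1-1 mock), 184 to 314 for submerged (lowest without its submerged replicate 1) and 0 to 11 for the interaction. Members called ranged from 0 to 1 and other iron genes from 0 to 1 in submerged bak1-3 bkk1-1 against Col, and other iron genes from 0 to 1 in the interaction. In the tcp set the ranges were 3441 to 5602 genes (5506; lowest without Col submerged replicate 3), 0 to 2 members and 9 to 15 other iron genes in submerged tcp21 against Col, and 1 to 2 members and 9 to 17 other iron genes in submerged tcpq against Col. They were 1696 to 1901 genes (2699), 1 to 2 members and 1 to 5 other iron genes in submerged tcpq against tcp21. Members called ranged from 2 to 5 with submergence in tcpq, 1 to 3 in Col and 1 to 2 in the tcpq interaction.

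Among the genes with a test, changes of sign occurred only in fold changes that did not pass; small fold changes of IRT1, FRO5 and NAS3 in the tcp set also changed sign in single leave-outs. NAS4 in mock tcpq against Col (0.012) was -0.0121 with RLE scaling, -0.0398 with only the compared groups, and -0.20 to 0.17 with 1 library left out. The leave-out ranges were -0.49 to 0.20 for NAS2 in mock bak1-3 bkk1-1 against Col, -0.19 to 0.12 for NAS4 in the submerged comparison, -0.37 to 0.039 for FRO4 in the bak set interaction, -0.026 to 0.11 for FRO3 with submergence in tcp21, -0.26 to 0.29 for NAS1 in submerged tcp21 against Col and -0.19 to 0.45 for NAS4 in submerged tcpq against tcp21.

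Residuals of libraries with the same replicate number in their titles correlated between -0.0927 and 0.0711 in the bak set. In the tcp set they correlated between -0.0761 and 0.0681. In the bak set 5 of 12 libraries, and in the tcp set 5 of 18, correlated best with their own number. The deposited column labels number some groups differently from the titles. These groups were submerged Col of the bak set and of the tcp set, submerged tcp21 and mock tcpq. Libraries sharing a column number were thus partly mismatched, so this check cannot decide whether libraries were paired. With the replicate block, which used the title numbers, 5 genes passed the bak set interaction in place of 10. IRT1, NAS2, NAS3 and FRO5 had few counts in several groups, which limits the precision of their values. NAS3 held 21, 18 and 22 counts in all in submerged tcpq, tcp21 and Col of the tcp set.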
